A study of Homo sapiens with 12 samples.

Results

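The transcriptional response of A549 cells with an empty vector to 4 h of transforming growth factor β (TGF-β) was described in 6 libraries, taken from the 12 of the whole study. A549 is an established human lung adenocarcinoma line. The 6 libraries were chosen by their labels: 3 came from cells given TGF-β at 5 ng/mL and 3 from cells given only the ligand buffer, both for 4 h. All 6 came from cells transduced with the empty lentiviral vector pCDH-EF1a-PURO (Co.vec), in which EF1a names the promoter, and selected with puromycin before the ligand was added, so the controls carried the vector and the selection too. The other 6 libraries carried the long non-coding RNA LETS1 in place of the empty vector, with the same ligand groups, and enter here only where the size of the response is set beside that of a second cell population. The comparison asks which genes respond to a short pulse of ligand in cells that carry no insert in the vector. A response in 1 cell line after 1 dose and 1 time is described, and the labels do not say whether replicates came from separate transductions, so p-values measure only the spread between these samples, which may be technical.

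TGF-β binds a pair of serine/threonine kinase receptors, TGFBR2 and TGFBR1, and the activated TGFBR1 phosphorylates SMAD2 and SMAD3. These join SMAD4, move to the nucleus and act on genes whose control regions hold short SMAD-binding elements, often beside sites for AP-1 and other factors. The early targets include the pathway's own inhibitors, so the signal limits itself, and in lung carcinoma cells longer exposure is known for epithelial-to-mesenchymal transition (EMT), matrix production and slower growth.

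Each of the 6 libraries held 19705135 to 20204195 fragments counted in genes, which was 80.2% to 80.8% of all fragments counted. Levels are given as CPM, the counts per 1000000 fragments of a TMM-scaled library, changes as log2 fold changes of TGF-β over buffer with their standard error (SE), and a gene was called higher or lower at an edgeR quasi-likelihood adjusted p under 0.05. Replicates of a group differed by more than counting error (chi-square per degree of freedom 2.16 to 5.24 over pairs), and the biological coefficient of variation estimated over all groups was 0.0413. Unaligned fragments made up 3.25% to 3.40% of the buffer libraries and 3.83% to 4.27% of the TGF-β libraries, fragments matching several genes 10.5% to 10.9% and 10.1% to 10.3%, and the part of these shifts in any result was not tested. The keratin genes KRT8 and KRT18 and the A549 enzymes AKR1B10 and ALDH3A1 were abundant, while CD3E of T cells had 0 counts over the 6 libraries and PTPRC, the pan-leukocyte marker, had 1. The line is of lung origin, and several markers of alveolar cells were near 0: the lineage factor gene NKX2-1 had 3 counts over the 6 libraries and the surfactant genes SFTPB 8 and SFTPC 17, and the club cell gene SCGB1A1 had 0. Others were present: the surfactant lipid transporter gene ABCA3 had 5227 counts in buffer and 4852 with TGF-β, AGER 139 and 87, and NAPSA 59 and 57.

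The 4 h response was broad and mostly small. Of 16192 genes tested, 3416 were called higher (21.1%) and 3011 lower (18.6%), while 7613 had an unadjusted p under 0.05. The median change of a called gene was 1.34-fold among the rises and 1.27-fold among the falls, and 2138 of the rises and 2204 of the falls were under 1.5-fold. Large changes leaned upward: 618 genes rose at least 2-fold (3.82% of those tested) against 284 that fell as much (1.75%), and 161 rose at least 4-fold against 25 that fell as much. Of the genes called higher, 94.9% had all 3 TGF-β libraries above all 3 buffer libraries, and 92.6% of those called lower had them all below. The calls were made on the same libraries, so this separation is no separate support for them. Over all genes tested the median log2 fold change was -0.017. Protein-coding genes gave 3150 rises and 2614 falls among 13321 tested, whereas genes annotated as lincRNA gave 82 and 124 among 733 and antisense genes 70 and 106 among 833. The median level was 25.6 CPM for the protein-coding genes, 1.15 CPM for lincRNA and 1.01 CPM for antisense genes. The part of level in these counts was not tested. The strand setting of the counting is not given in the sources used here, so reads of an antisense gene and of its partner may not be told apart.

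**Figure D1:**
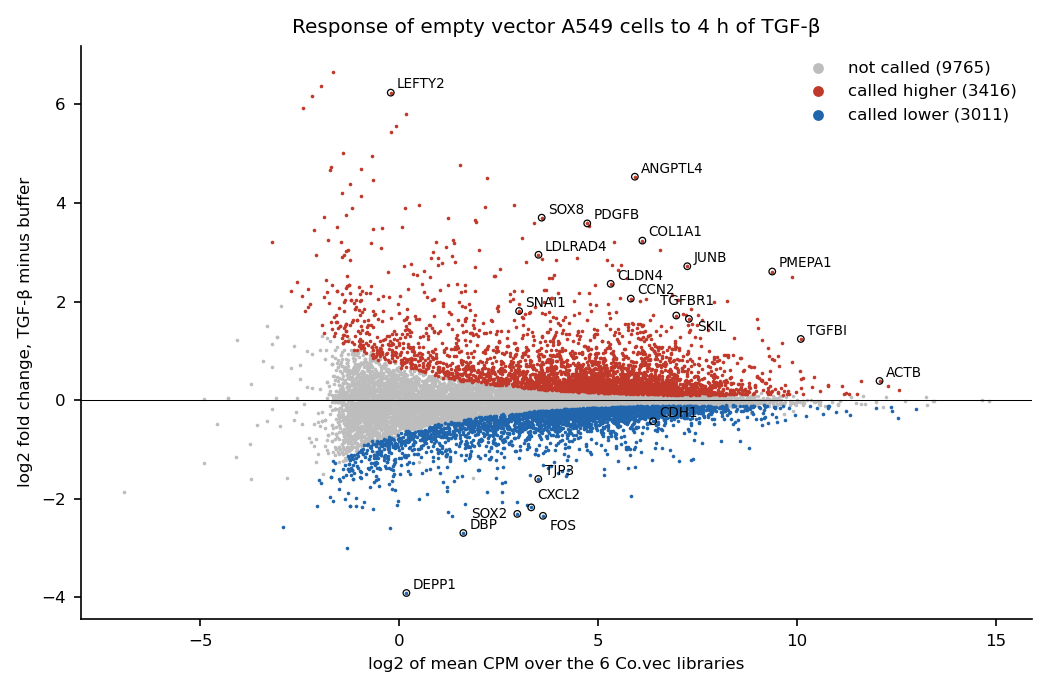
Each point is 1 gene tested, by its mean level over the 6 Co.vec libraries (log2 CPM, horizontal) and its log2 fold change of TGF-β over buffer (vertical), coloured where called higher or lower; 4 genes at 0 in all 6 libraries are not drawn. The 618 rises of at least 2-fold outnumber the 284 such falls, and most called genes lie close to the zero line.

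Most genes listed as feedback inhibitors of SMAD signalling were higher. Of the 21 listed and tested, 14 were called higher and 3 lower, against 21.1% and 18.6% of all genes. Their median log2 fold change was 0.42 against -0.017 over all genes. Not every member dampens the signal: RNF111 (0.40), which is among the 14, and USP15, which was not called, are known to promote it. RefSeq promoter windows (GRCh38.p14, 250 bases before to 50 after an annotated start) are shown for SMAD7, PMEPA1 and SKIL, which answer the ligand and are SMAD targets by earlier knowledge, and for DEPP1, which had the largest fall among the genes named by rule. Each is printed 5′ to 3′ on the strand of the gene, with every CAGAC, the core of the SMAD box, in capitals on either strand, so that a match on the other strand reads GTCTG.
SMAD7, chr18:48950916-48951215, minus strand: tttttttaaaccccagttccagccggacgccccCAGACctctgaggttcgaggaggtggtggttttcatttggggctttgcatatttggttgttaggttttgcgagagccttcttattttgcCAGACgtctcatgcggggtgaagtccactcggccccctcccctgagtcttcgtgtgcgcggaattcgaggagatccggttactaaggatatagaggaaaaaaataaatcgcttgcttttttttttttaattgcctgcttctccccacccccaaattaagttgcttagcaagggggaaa
PMEPA1, chr20:57709966-57710265, minus strand: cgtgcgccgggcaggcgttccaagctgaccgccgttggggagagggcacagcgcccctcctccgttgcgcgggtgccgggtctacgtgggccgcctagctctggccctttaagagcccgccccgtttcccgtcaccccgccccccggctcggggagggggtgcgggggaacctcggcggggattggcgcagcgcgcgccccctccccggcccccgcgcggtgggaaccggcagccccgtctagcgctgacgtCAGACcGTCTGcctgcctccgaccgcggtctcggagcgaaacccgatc
SKIL, chr3:170357465-170357764, plus strand: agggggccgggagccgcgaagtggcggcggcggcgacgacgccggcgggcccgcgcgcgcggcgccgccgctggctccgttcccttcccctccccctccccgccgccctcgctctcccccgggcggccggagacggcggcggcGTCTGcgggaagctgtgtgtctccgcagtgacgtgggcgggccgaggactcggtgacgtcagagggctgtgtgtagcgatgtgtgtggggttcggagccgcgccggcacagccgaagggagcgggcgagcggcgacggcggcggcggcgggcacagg
DEPP1, chr10:44978760-44979059, minus strand: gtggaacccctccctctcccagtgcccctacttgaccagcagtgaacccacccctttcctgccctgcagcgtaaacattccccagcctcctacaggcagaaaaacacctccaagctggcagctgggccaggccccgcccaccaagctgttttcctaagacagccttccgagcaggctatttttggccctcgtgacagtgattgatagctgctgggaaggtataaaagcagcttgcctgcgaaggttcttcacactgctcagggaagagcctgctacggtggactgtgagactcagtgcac
The SMAD7 window held CAGAC at 217 and 128 bases before the start, the PMEPA1 window held it at 2 and 8 bases after the start, once on each strand, the SKIL window held it 107 bases before, and the DEPP1 window held none. Of the windows of SMAD7 and PMEPA1 for different annotated starts, those with the most matches are printed: the 2 further SMAD7 windows hold 1 and 0 CAGAC and the 3 further PMEPA1 windows 0, 1 and 1. The window of CGB8, which had one of the largest rises, holds 0 too. CAGAC is short, and 44.1% of the 16846 windows of tested genes held it, so a match in a single window says little. Among windows of genes that rose at least 2-fold the share was 52.0%, among those of all genes called higher 46.5%, among those of genes called lower 42.0% and among those of genes that fell at least 2-fold 46.4%. The AP-1 element TGANTCA, which none of the windows printed above holds, was in 5.56% of all windows, 9.34% of those of genes that rose at least 2-fold, 4.46% of those of genes called lower and 6.70% of those of genes that fell at least 2-fold. The GC-rich SMAD element GGCGC was in 69.0%, 58.3%, 69.5% and 56.3% of the same sets, and the palindrome GTCTAGAC in 0.172%, 0.151%, 0.151% and 0%. For each of the 4 motifs, windows of falls of at least 2-fold thus lay on the same side of the share over all windows as those of rises of that size. All 4 motifs were searched on both strands, the palindrome holds no CAGAC, and the shares are descriptions with no test.

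PMEPA1 (ENSG00000124225, chromosome 20, 57648392 to 57711536) encodes a membrane protein that keeps SMAD2 and SMAD3 from the receptor. It stood at 191, 181 and 191 CPM in the buffer libraries and 1175, 1157 and 1108 CPM with TGF-β, so every treated library was far above every control. The log2 fold change was 2.61 (SE 0.047, adjusted p = 7.96e-34). LDLRAD4 (ENSG00000168675, chromosome 18, 13217498 to 13652755), a PMEPA1 relative with the same SMAD-binding role, went from 2.27, 2.92 and 2.60 to 20.2, 17.3 and 22.8 CPM. Its log2 fold change of 2.95 (SE 0.12, adjusted p = 1.41e-22) was the largest of the group. SMAD7 (ENSG00000101665, chromosome 18, 48919853 to 48952052), the inhibitory SMAD that brings ubiquitin ligases to the receptor, had 22.6, 24.2 and 25.5 CPM in buffer and 50.6, 45.9 and 49.3 CPM with ligand, again without overlap. Its log2 fold change was 1.01 with an SE of 0.074 (adjusted p = 1.61e-13). SKIL (ENSG00000136603, chromosome 3, 170357678 to 170396835) encodes SnoN, a SMAD co-repressor, and had 85.1, 72.5 and 68.8 CPM in buffer and 240.4, 233 and 237 CPM with ligand, a log2 fold change of 1.65 with an SE of 0.053 (adjusted p = 2.92e-25). SKI, which encodes the related co-repressor, rose by 1.41 on the log2 scale. The falls were TGIF2, another SMAD co-repressor (log2 fold change -0.66), the ubiquitin ligase gene NEDD4L (-0.31) and SMAD6, the inhibitory SMAD of the BMP arm (-0.14, adjusted p = 0.0356). The SMAD6 call was the least firm of these: it was lost without any 1 of Co.vec buffer replicate 2 or 3, Co.vec TGF-β replicate 1 or 2, LETS1 buffer replicate 2 or LETS1 TGF-β replicate 1 (adjusted p from 0.0523 to 0.228), and with 3 other settings.

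**Figure D2:**
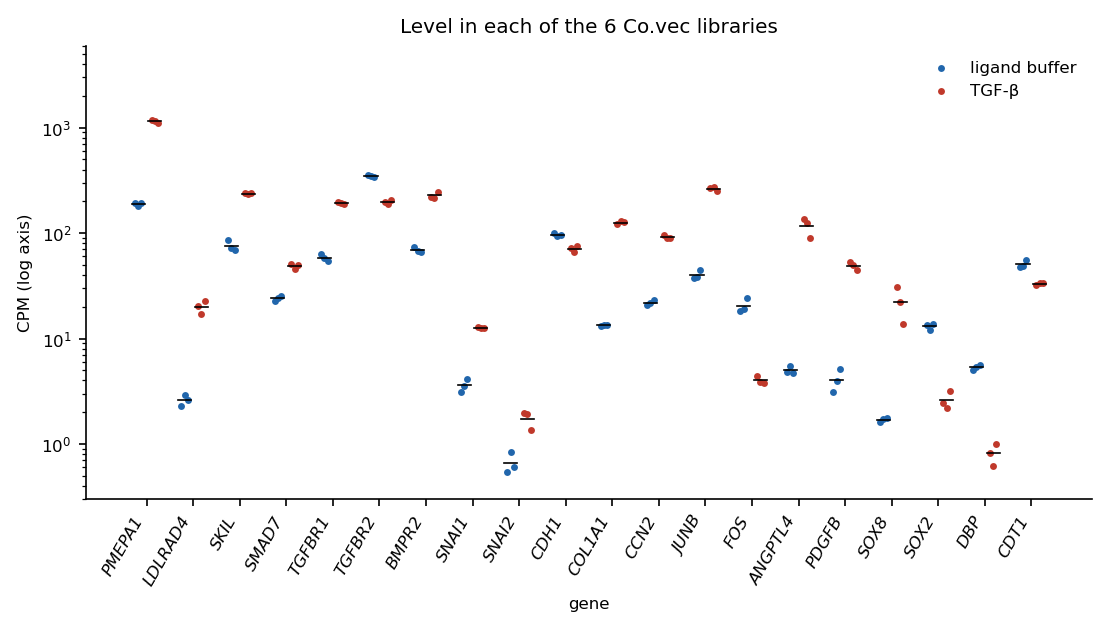
Level of 20 genes (CPM, log axis) in each of the 3 buffer and 3 TGF-β libraries of Co.vec cells, 1 point per library, with a bar at each group mean. The groups are separate for every gene drawn, and replicates of a group lie close together except at the lowest levels and for ANGPTL4, PDGFB and SOX8.

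Some ligand genes of the family, several ligand carrier genes and most secreted antagonist genes were higher. Of 21 ligands and ligand carriers tested, 12 were called higher (57.1%) and 4 lower (19.0%, close to the 18.6% of all genes). Their median log2 fold change was 0.50. The rises included the ligand genes TGFB1 (0.63) and TGFB2 (0.50), and also BMP1, LTBP2, LTBP3, LTBP4, THBS1 and FURIN, which are not ligand genes. All 4 falls were ligand genes. Of 9 antagonists tested, 7 were called higher and 0 lower (median 0.95), TWSG1 and NBL1 being the ones not called. The activin subunit gene INHBA had 0.0988, 0.0496 and 0 CPM in buffer and 0.514, 0.309 and 0.452 CPM with TGF-β, without overlap but from only 3 and 25 fragments, 8.56 times as high with a 95% counting interval of 2.61 to 44.3 (adjusted p = 5.10e-04). THBS1, whose product thrombospondin-1 can release TGF-β from its latent form, was far more abundant, at 86.8, 84.3 and 80.7 CPM in buffer and 257, 234 and 246 CPM with ligand, and rose by 1.55 (SE 0.051, adjusted p = 1.83e-25) on the log2 scale. The bone morphogenetic protein (BMP) family genes GDF6 (2.44, from only 5 and 28 fragments) and BMP6 (1.55) also rose. GDF15, a stress-responsive member, fell from 74.2, 92.7 and 98.4 to 32.6, 37.4 and 33.98 CPM, a log2 fold change of -1.35 with an SE of 0.10 (adjusted p = 4.06e-08). INHBB (-1.11), BMP4 (-0.40) and GDF11 (-0.31) were the other falls.

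LEFTY2 (ENSG00000143768, chromosome 1, 225936598 to 225941489), an antagonist of NODAL signalling, was close to silent in buffer. It had 0, 0 and 0.0501 CPM in the buffer libraries, a single fragment in all, and 1.18, 1.80 and 2.16 CPM with ligand, from 101 fragments. That is 104 times as high, with a 95% counting interval of 18.2 to 4136, which covers counting error only. LEFTY2 has a close paralog, LEFTY1, and reads shared by them could be split by the counting. GREM1, which encodes the BMP antagonist gremlin, had 8.70, 8.23 and 8.01 CPM in buffer and 39.8, 36.8 and 35.8 CPM with ligand and rose by 2.17 on the log2 scale (SE 0.077, adjusted p = 2.35e-24). NOG, for the BMP antagonist noggin, rose by 3.51 (adjusted p = 5.10e-10), and FSTL3, for a follistatin-like binder of activin, by 1.42 (adjusted p = 3.30e-23).

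The genes of the receptor pair that binds TGF-β moved in opposite directions. Of 16 receptors and co-receptors tested, 8 were called higher (50%) and 4 lower (25%), against 21.1% and 18.6% of all genes. The median log2 fold change was 0.23, and only 5 were called higher without Co.vec buffer replicate 2. TGFBR1 (ENSG00000106799, chromosome 9, 99104038 to 99154192), the signalling receptor of TGF-β, stood at 63.1, 57.5 and 54.8 CPM in buffer and 197, 193 and 187 CPM with ligand. All treated libraries were above all controls, a log2 fold change of 1.72 with an SE of 0.054 (adjusted p = 1.33e-25). TGFBR2 (ENSG00000163513, chromosome 3, 30606502 to 30694142), the receptor that binds the ligand, went the other way, from 357, 348 and 341 to 198, 189 and 205 CPM, a log2 fold change of -0.82 with an SE of 0.042 (adjusted p = 2.75e-19). TGFBR3, for the co-receptor betaglycan, fell from 20.7, 20.3 and 19.99 to 7.09, 8.71 and 8.28 CPM, a log2 fold change of -1.34 with an SE of 0.091 (adjusted p = 1.41e-15). The BMP type II receptor gene BMPR2 rose from 72.9, 67.5 and 65.5 to 222, 216 and 246 CPM, and its log2 fold change of 1.73 (SE 0.052, adjusted p = 1.42e-26) was close to that of TGFBR1. NRP2, a neuropilin that also binds TGF-β (1.51), and ACVR1, a type I receptor for BMPs (1.15), rose as well, while the activin type I receptor gene ACVR1B (-0.33) and NRP1 (-0.21) fell.

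The genes of the SMADs themselves changed little in size. Among 17 SMADs and cofactors tested, 10 were called higher (58.8%) and 1 lower (5.9%), against 21.1% and 18.6% of all genes. Their median log2 fold change was 0.21. The fall was SMAD2, which had 142, 141 and 144 CPM in buffer and 113, 113 and 109 CPM with TGF-β, a log2 fold change of -0.35 with an SE of 0.043 (adjusted p = 1.53e-08). Without Co.vec buffer replicate 1 a second member was called lower. SMAD5, a BMP-activated SMAD, rose by 0.35 on the log2 scale, and the larger rises were in partners of the SMADs on DNA: the AP-1 subunit gene JUN (2.13), RUNX1 (1.07) and FOXO1 (0.90).

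**Figure D3:**
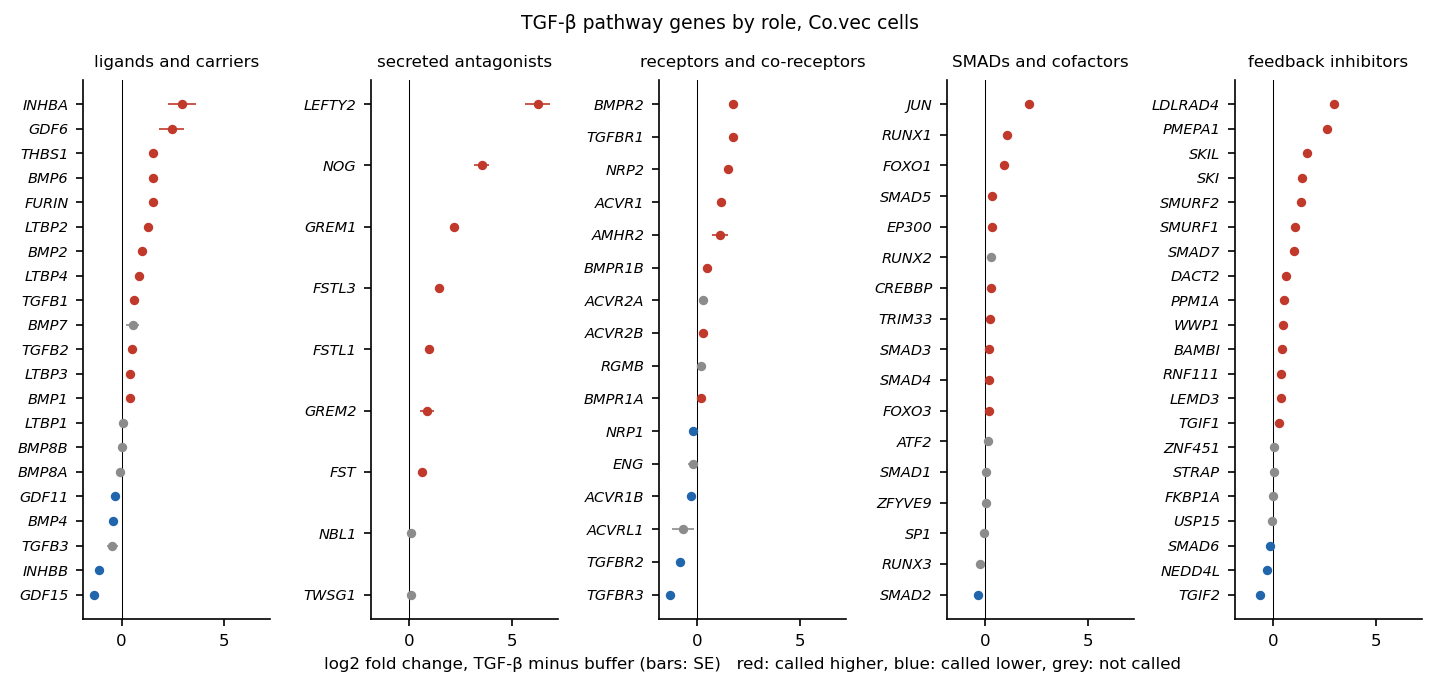
Log2 fold change of TGF-β over buffer in Co.vec cells for the tested members of the pathway lists, 1 point per gene, arranged by role and coloured where called higher or lower, with bars for the SE. Secreted antagonists lie at or above 0, receptors lie on both sides, and most SMADs and cofactors lie near 0, with JUN, RUNX1 and FOXO1 farthest above it.

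Genes known as early SMAD targets rose nearly as a block. Of 33 tested, 29 were called higher (87.9%, against 21.1% of all genes) and 0 lower, and the median log2 fold change was 1.14. The list was written from general knowledge of TGF-β targets, with earlier results of these data known, so its direction is no independent evidence. ANGPTL4 (ENSG00000167772, chromosome 19, 8363289 to 8374373), a secreted inhibitor of lipoprotein lipase, had 4.84, 5.50 and 4.76 CPM in buffer and 135, 124 and 90.6 CPM with ligand. Treated libraries were all far above the controls but spread among themselves, with replicate 3 the lowest, and the log2 fold change was 4.53 (SE 0.19, adjusted p = 1.53e-08). PDGFB, for a chain of platelet-derived growth factor, went from 3.11, 3.97 and 5.16 to 53.02, 49.7 and 44.4 CPM, a log2 fold change of 3.59 with an SE of 0.099 (adjusted p = 6.73e-27). CCN2 (ENSG00000118523, chromosome 6, 131948176 to 131951373), for the matricellular connective tissue growth factor, went from 20.7, 21.8 and 23.3 to 94.9, 89.6 and 90.04 CPM, a log2 fold change of 2.06 with an SE of 0.064 (adjusted p = 2.49e-26). The tetraspanin gene TSPAN2 (3.19, from only 7 and 65 fragments) and the cytokine gene IL11 (3.05) rose to a like extent. TGFBI, for a secreted matrix protein named for its induction by TGF-β, rose from 657, 642 and 658 to 1653, 1512 and 1462 CPM (1.24 on the log2 scale, adjusted p = 6.18e-24).

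Some EMT transcription factor genes, SNAI1 and SNAI2 among them, were higher at 4 h. Of 14 EMT factors tested, 7 were called higher (50%) and 3 lower (21.4%), against 21.1% and 18.6% of all genes. The median log2 fold change was 0.23. SNAI1 (ENSG00000124216, chromosome 20, 49982999 to 49988886), for the E-cadherin repressor Snail, had 3.11, 3.57 and 4.11 CPM in buffer and 12.9, 12.5 and 12.4 CPM with ligand, without overlap, and a log2 fold change of 1.81 with an SE of 0.11 (adjusted p = 1.38e-16). SNAI2, for Slug, was near the limit of detection at 0.544, 0.843 and 0.601 CPM and reached 1.95, 1.91 and 1.36 CPM, a log2 fold change of 1.38 with an SE of 0.27 (adjusted p = 6.65e-05). FOXC2 (1.63) and SOX4 (1.20) rose too, and SOX9 (-0.65) and FOXC1 (-0.52) fell. The third fall, SNAI3 (-0.93, adjusted p = 0.0339), was lost with any single Co.vec library left out except TGF-β replicate 1 (adjusted p from 0.0532 to 0.166).

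CDH1 (ENSG00000039068, chromosome 16, 68737225 to 68835548), for E-cadherin, fell from 100, 92.8 and 94.9 to 71.6, 66.7 and 75.5 CPM, a log2 fold change of -0.43 with an SE of 0.050 (adjusted p = 4.17e-09). CDH2, for N-cadherin, rose from 69.3, 68.3 and 66.97 to 94.5, 94.9 and 89.9 CPM, a log2 fold change of 0.45 with an SE of 0.047 (adjusted p = 2.34e-10). Both shifts were without overlap and well under 2-fold. VIM, for the intermediate filament vimentin, rose by 0.35 (adjusted p = 1.16e-08). FN1, for fibronectin, had overlapping groups (894, 802 and 772 against 951, 859 and 996 CPM) and a log2 fold change of 0.19 (adjusted p = 0.0106), a call that was lost without Co.vec buffer replicate 3 (adjusted p = 0.060) or TGF-β replicate 3 (0.0679). Of 18 mesenchymal genes tested, 9 were called higher (50%) and 1 lower (5.6%), against 21.1% and 18.6% of all genes (median log2 fold change 0.40). The rises were led by the growth factor receptor gene PDGFRA (2.03, from only 11 and 45 fragments), the gelatinase gene MMP2 (1.34), SPOCK1 (0.61) and NT5E (0.59). The fall was CD44 (-0.12), and without Co.vec buffer replicate 1 or 2 or TGF-β replicate 2 or 3 no member was called lower.

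Among 25 epithelial junction and keratin genes, 9 were called higher (36%) and 6 lower (24%), against 21.1% and 18.6% of all genes. The median log2 fold change was -0.074. CLDN4, for a claudin of tight junctions, rose from 11.2, 13.3 and 14.6 to 73.3, 67.3 and 60.03 CPM, a log2 fold change of 2.36 with an SE of 0.090 (adjusted p = 5.28e-18). KRT80 (1.12), the plakoglobin gene JUP (0.81) and the cingulin gene CGN (0.69) also rose. TJP3, for the tight junction scaffold ZO-3, fell from 16.5, 18.1 and 16.4 to 5.81, 6.18 and 4.87 CPM (-1.60 on the log2 scale, adjusted p = 1.41e-15). ELF3, for an epithelial ETS transcription factor, fell from 111, 115 and 119 to 47.4, 50.5 and 50.7 CPM (-1.22, adjusted p = 1.82e-22), and the desmosome gene PKP2 (-0.71) and MAL2 (-0.60) fell with them.

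Matrix, adhesion and cytoskeleton genes leaned upward, each list with a few large rises. Among 28 extracellular matrix genes, 13 were called higher (46.4%) and 3 lower (10.7%), against 21.1% and 18.6% of all genes. The median log2 fold change of 0.082 was near that of all genes. COL1A1 (ENSG00000108821, chromosome 17, 50183289 to 50201632), for a chain of type I collagen, stood at 13.2, 13.4 and 13.3 CPM in buffer and 121, 129 and 126 CPM with ligand, a log2 fold change of 3.24 with an SE of 0.065 (adjusted p = 2.42e-32). Treated and control libraries were tight and far apart. COL5A1 (1.24), for a chain of type V collagen, and MATN2 (0.70) also rose, and FBN2 (-0.23) fell. COL1A1 and PDGFRA also mark fibroblasts. The summed level of 25 markers of other cell types was 58.3 to 64.6 CPM in buffer and 160 to 170 CPM with TGF-β. Without COL1A1 and PDGFRA it was 44.6 to 51.1 and 37.0 to 40.4 CPM. Most of that remainder was SNAP25, with 2584 fragments in buffer and 2012 with TGF-β, so it says little about the other markers. Whether RNA of other cells was present was not tested. Other fibroblast markers were near 0: DCN had 1 fragment over the 6 libraries, COL3A1 had 10 and PDGFRB 32. Of the 25 markers 7 were tested, of which 2 were called higher, COL1A1 and PDGFRA, and 2 lower, SNAP25 (-0.32) and CD14 (-0.63). The CD14 call was lost without Co.vec buffer replicate 2 (adjusted p = 0.156) or TGF-β replicate 1 (0.0718) or 3 (0.0524).

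Of 31 genes of matrix crosslinking and proteolysis, 18 were called higher (58.1%) and 4 lower (12.9%), against 21.1% and 18.6% of all genes (median log2 fold change 0.28). The stromelysin gene MMP10 rose from 0.0494, 0 and 0 to 0.771, 0.927 and 0.502 CPM, from 1 and 43 fragments, 44.2 times as high with a 95% counting interval of 7.51 to 1784 (adjusted p = 3.86e-07). ADAM19, for a membrane metalloprotease, rose from 13.99, 13.1 and 10.4 to 92.3, 81.6 and 77.9 CPM (2.74, adjusted p = 4.93e-23). TIMP3, for a metalloprotease inhibitor bound to matrix, rose with them (3.48), from only 6 and 69 fragments. The far more abundant inhibitor gene TIMP2 rose by 0.48, and TIMP1 (0.049) was not called. ADAMTS1, for a secreted protease of proteoglycans, fell from 1.09, 1.29 and 0.902 to 0.514, 0.361 and 0.100 CPM (-1.74, adjusted p = 2.91e-04), and MMP24 (-0.55), ADAMTS12 (-0.50) and the prolyl hydroxylase gene P4HA1 (-0.23) fell less.

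Integrin genes, for receptors of matrix, were called higher in 13 of 17 (76.5%) and lower in 1 (5.9%), against 21.1% and 18.6% of all genes (median log2 fold change 0.64). ITGA2, for a collagen receptor chain, rose from 103, 95.5 and 88.6 to 340.5, 287 and 256 CPM (1.62, adjusted p = 1.22e-09), with ITGB3 (1.39), the fibronectin receptor chain gene ITGA5 (1.12) and ITGA11 (1.08). The fall was ITGB8 (-0.45, adjusted p = 4.09e-04). Of 35 actin cytoskeleton genes, 23 were called higher (65.7%) and 2 lower (5.7%; median 0.25). CNN1, for a smooth muscle calponin, had 2 fragments over the buffer libraries and 59 with ligand, 30.3 times as high with a 95% counting interval of 8.02 to 256. TAGLN (1.61), PDLIM7 (1.39) and the focal adhesion gene ZYX (1.08) rose with it, and LIMA1 (-0.38) and ARHGAP29 (-0.35) fell.

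Immediate early genes, switched on by many stimuli without new protein synthesis, were called higher more often than lower at 4 h. Among 29 tested, 16 were called higher (55.2%) and 5 lower (17.2%, against 18.6% of all genes; median log2 fold change 0.23). JUNB (ENSG00000171223, chromosome 19, 12791496 to 12793315), for an AP-1 subunit, stood at 37.3, 38.7 and 44.2 CPM in buffer and 269.7, 273 and 248 CPM with ligand, a log2 fold change of 2.72 with an SE of 0.12 (adjusted p = 2.37e-08). FOS (ENSG00000170345, chromosome 14, 75278774 to 75282230), for another AP-1 subunit, fell from 18.2, 19.03 and 24.3 to 4.42, 3.86 and 3.81 CPM, a log2 fold change of -2.35 with an SE of 0.14 (adjusted p = 1.96e-13). FOSB moved against FOS, from 0.445, 0.446 and 0.551 to 5.45, 4.998 and 3.46 CPM (3.25, adjusted p = 4.75e-04), at levels of few fragments. IER3 (1.53) rose, and the orphan nuclear receptor genes NR4A1 (-0.98) and NR4A2 (-0.48) and the factor gene KLF2 (-0.48) fell. Of 17 genes that feed back on MAP kinase signalling, 9 were called higher (52.9%) and 5 lower (29.4%), against 21.1% and 18.6% of all genes (median 0.24). The phosphatase genes DUSP7 (1.36) and DUSP8 (1.35), SPRY4 (0.96) and PHLDA1 (0.78) rose. SPRY1, for another Sprouty inhibitor, fell from 6.92, 6.99 and 7.86 to 1.75, 2.01 and 2.21 CPM (-1.86, adjusted p = 7.62e-13), and DUSP16 (-0.32), ERRFI1 (-0.31) and DUSP14 (-0.26) fell less.

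Among 39 secreted growth factor and cytokine genes, 18 were called higher (46.2%) and 11 lower (28.2%; median log2 fold change 0.15). Beside ANGPTL4, PDGFB and IL11, the fibroblast growth factor gene FGF1 rose from 0.0494, 0.0496 and 0 to 0.462, 0.309 and 0.502 CPM (adjusted p = 5.21e-04), from 2 and 25 fragments, 12.8 times as high with a 95% counting interval of 3.2 to 112. HGF, for hepatocyte growth factor, fell from 0.988, 0.991 and 1.15 to 0.103, 0.412 and 0.151 CPM (-2.21, adjusted p = 1.47e-05). The neutrophil chemokine gene CXCL2 fell from 15.4, 16.4 and 17.4 to 3.70, 3.45 and 3.71 CPM (-2.18, adjusted p = 7.69e-19), and CXCL1 (-1.40) and the macrophage growth factor gene CSF1 (-0.96) fell too. CXCL1 and CXCL2 are also NF-κB genes. Of 23 NF-κB genes tested, 11 were called higher (47.8%) and 5 lower (21.7%), against 21.1% and 18.6% of all genes. Their median was 0.15, and 7 were called higher without Co.vec buffer replicate 3. CXCL8 (0.91), for another neutrophil chemokine, the subunit gene RELB (0.90) and TNFAIP3 (0.65), for the feedback inhibitor A20, rose, while NFKBIZ (-0.73) and BCL3 (-0.61) fell. The interferon genes were called at a rate close to or under that of all genes: 7 of 36 higher (19.4%) and 4 lower (11.1%), with a median log2 fold change of -0.029.

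In the Wnt pathway 17 of 33 genes were called higher (51.5%) and 4 lower (12.1%), against 21.1% and 18.6% of all genes (median log2 fold change 0.20). The ligand gene WNT5B rose from 0.593, 0.545 and 0.601 to 6.99, 7.99 and 6.42 CPM (3.61, adjusted p = 9.17e-18). WNT7A went from 3 fragments in the buffer libraries to 72, 24.6 times as high with a 95% counting interval of 8.10 to 122. The secreted Wnt deacylase gene NOTUM (2.57) and the feedback gene NKD1 (2.16) rose as well. RNF43 (25.99, 29.5 and 27.8 to 9.61, 9.17 and 10.7 CPM, -1.50, adjusted p = 6.41e-19) and ZNRF3 (-0.67), for a pair of ubiquitin ligases that remove Wnt receptors, fell together with LGR4 (-0.82), whose product restrains them, and with WNT5A (-0.86). Among 23 Notch genes, 11 were called higher (47.8%) and 6 lower (26.1%; median 0.19). HES2 (2.22), HEY1 (1.05), LFNG (0.94) and MAML2 (0.92) led the rises, and the feedback gene NRARP (-1.13) and the target gene HES1 (-0.70) were among the falls. Of 27 YAP/TAZ targets, 14 were called higher (51.9%) and 4 lower (14.8%; median 0.15). The tissue factor gene F3 rose from 4.30, 4.46 and 4.91 to 23.9, 21.1 and 19.4 CPM (2.23, adjusted p = 2.20e-20), CCN1 (1.55) and ANKRD1 (1.42) rose with CCN2, and IGFBP3 (-0.40) was the largest fall.

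Genes of the cell division cycle were lower by small amounts. Of 32 DNA replication genes, 24 were called lower and 1 higher, with a median log2 fold change of -0.26, and of 30 mitosis genes 18 were called lower and 1 higher (median -0.20), against 18.6% of all genes called lower. CDT1, for a factor that licenses replication origins, fell from 47.6, 49.02 and 54.95 to 31.9, 33.3 and 33.4 CPM (-0.62, SE 0.061, adjusted p = 5.90e-11). PRIM1 (-0.55), POLE2 (-0.53) and POLA2 (-0.44), for parts of the replicative polymerases, fell with it. The mitotic kinesin gene KIF20A (82.04, 83.7 and 83.1 to 50.97, 55.1 and 63.3 CPM, -0.55, adjusted p = 1.11e-10), HMMR (-0.47), the kinase gene PLK1 (-0.37) and DLGAP5 (-0.34) were the largest mitotic falls, and KIF2C (0.31) was the rise. The only replication gene called higher, GINS3 (0.18), was lost without Co.vec buffer replicate 1 or 2 or TGF-β replicate 1 (adjusted p 0.112, 0.0839 and 0.116) and with DESeq2.

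Among 23 cytostatic and ID genes 7 were called higher and 7 lower (30.4% each, against 21.1% and 18.6% of all genes). The median log2 fold change was -0.055, and 3 were called lower without Co.vec TGF-β replicate 1. CDKN1A, for the CDK inhibitor p21, rose from 207, 212 and 218 to 430.3, 393 and 380.4 CPM (0.92, SE 0.046, adjusted p = 1.30e-19), and CDKN1C (1.14), for a relative of p21, and the MYC antagonist gene MXD1 (1.27) rose too. CDKN2C (-0.68), for another CDK inhibitor, and the phosphatase gene CDC25A (-0.41) fell. MYC, a growth-promoting factor gene that TGF-β lowers in many epithelial cells, had overlapping groups here, 79.4, 85.7 and 85.9 against 89.3, 74.7 and 77.5 CPM. Its log2 fold change was -0.055 with an SE of 0.056 (adjusted p = 0.467) and was not called. The ID genes, which encode inhibitors of helix-loop-helix factors and are textbook BMP targets, parted: ID1 rose from 76.9, 75.8 and 86.8 to 143, 139 and 136 CPM (0.81, adjusted p = 1.07e-12), and ID2 fell from 24.6, 25.2 and 28.7 to 10.6, 11.5 and 13.8 CPM (-1.12, adjusted p = 6.82e-14). ID3 rose by 0.19 (adjusted p = 0.0107), a call lost without Co.vec buffer replicate 1 (adjusted p = 0.0677) or TGF-β replicate 3 (0.0554).

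Genes of the circadian clock, of FOXO-linked growth arrest and of stem cell control were among the largest falls. Of 21 circadian clock genes, 10 were called lower (47.6%, against 18.6% of all genes) and 5 higher (23.8%, near the 21.1% of all genes). The median log2 fold change was -0.22. DBP (ENSG00000105516, chromosome 19, 48630030 to 48637438), for a clock output factor, had 4.99, 5.40 and 5.56 CPM in buffer and 0.822, 0.618 and 1.004 CPM with ligand, a log2 fold change of -2.69 with an SE of 0.21 (adjusted p = 1.21e-13). HLF (-2.27), for a factor of the same family, fell with CIART (-2.17) and PER2 (-1.48), which repress the clock activator. CRY1 (1.05), BHLHE40 (0.88), CSNK1E (0.57) and BMAL1 (0.34) rose, so repressors lay on both sides. The 4 h comparison holds 1 clock time, and no other time was measured in these libraries.

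Of 22 genes linked to FOXO factors, growth arrest and energy shortage, 10 were called lower (45.5%) and 6 higher (27.3%). Over all genes the shares were 18.6% and 21.1%. The median log2 fold change was -0.23. DEPP1 (ENSG00000165507, chromosome 10, 44970981 to 44978810), a FOXO target tied to autophagy, went from 2.08, 2.03 and 2.30 to 0.360, 0 and 0.0502 CPM and had the largest fall among the genes named by rule, with a log2 fold change of -3.91 with an SE of 0.40 (adjusted p = 1.34e-10). KLF9 (-1.57), the repressor gene BCL6 (-1.25) and PDK4 (-1.21), for a kinase that limits pyruvate oxidation, fell too. PIK3IP1 (1.56), CCNG2 (1.07), BCL2L11 (0.56) and FBXO32 (0.55), which are also known FOXO targets, rose.

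Among 16 SOX and stem cell genes 7 were called lower (43.8%, against 18.6% of all genes) and 4 higher (25%, near the 21.1% of all genes). The median log2 fold change was -0.25. SOX2 (ENSG00000181449, chromosome 3, 181711924 to 181714436), for a factor of airway progenitors and stem cells, stood at 13.4, 12.1 and 13.7 CPM in buffer and 2.47, 2.22 and 3.21 CPM with ligand, a log2 fold change of -2.31 with an SE of 0.13 (adjusted p = 1.25e-17). SOX21, which SOX2 is known to activate, fell from 4.30, 4.36 and 3.91 to 0.873, 0.824 and 0.753 CPM (-2.35, adjusted p = 1.76e-12). SOX8 rose from 1.63, 1.73 and 1.75 to 30.8, 22.4 and 13.8 CPM (3.70, SE 0.36, adjusted p = 3.37e-05), with the treated libraries spread more than 2-fold among themselves, replicate 1 the highest. LIN28B (-0.76), for a protein that blocks let-7 maturation, fell and SOX13 (0.27) rose. Of 17 lung and A549 lineage genes tested, 11 were called lower (64.7%) and 2 higher (11.8%; median -0.15), 7 lower without Co.vec TGF-β replicate 1. The endoderm factor gene FOXA2 fell from 46.9, 48.5 and 50.7 to 23.02, 22.7 and 27.2 CPM (-1.002, adjusted p = 7.44e-15), with the urea cycle gene CPS1 (-0.87), while the factor gene HNF4A (0.98) rose.

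**Figure D4:**
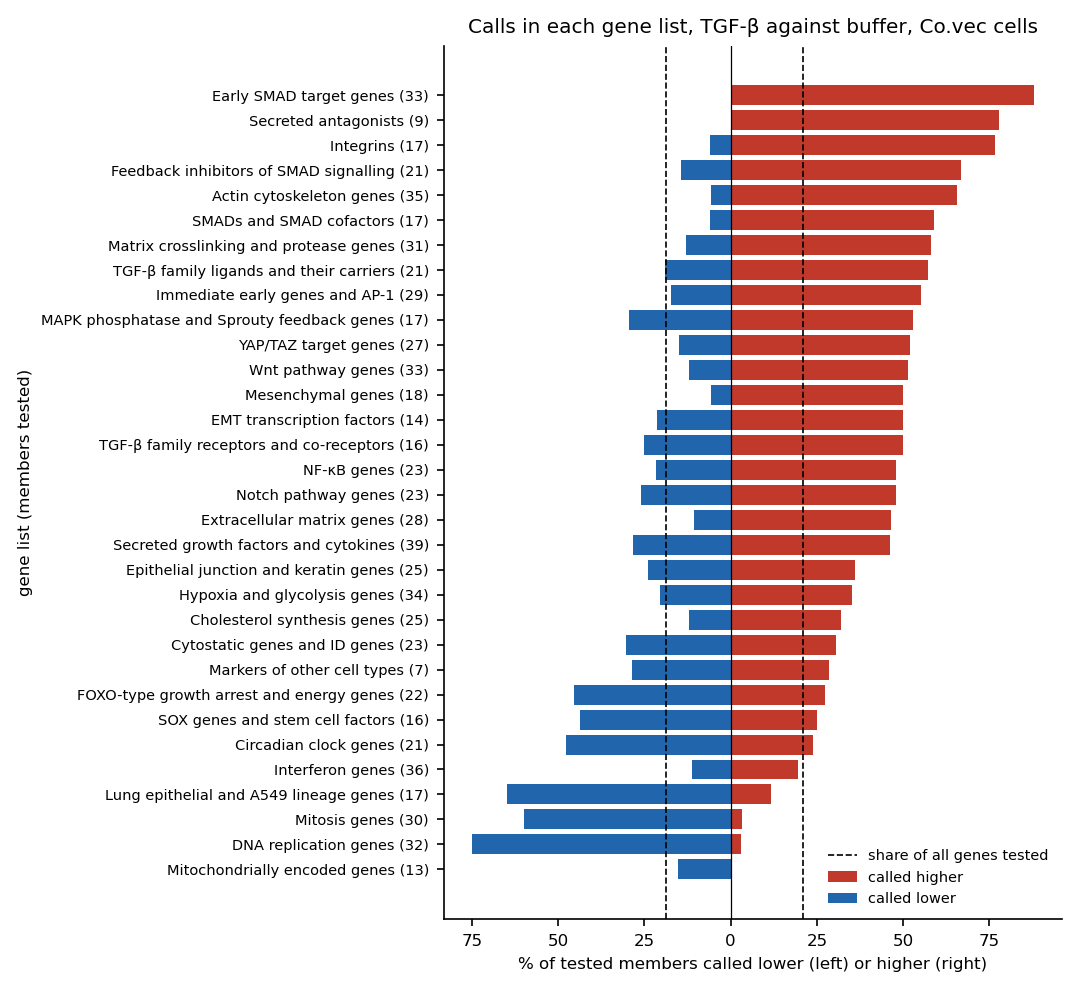
Share of the tested members of each list called higher (right) and lower (left) with TGF-β in Co.vec cells, in percent, with dashed lines at the shares over all 16192 genes (21.1% and 18.6%). Early SMAD targets, secreted antagonists and integrins reach farthest to the right, and DNA replication, lineage and mitosis genes farthest to the left.

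Beyond the pathway lists, the largest rises included several genes that were nearly silent in buffer. CGB8, for a β chain of chorionic gonadotropin, went from 2 to 130 fragments, 66.7 times as high (95% counting interval 18.1 to 557), but it has near-identical copies beside it and the assignment of reads among them is uncertain. LINC01629, a long non-coding RNA gene, went from 2 to 109 fragments, 56.0 times as high (15.1 to 468). ELFN1, for a synaptic membrane protein, went from 2 to 71 fragments, 36.5 times as high (9.73 to 307). KANK4, for a protein of cell adhesion sites, rose from 0.198, 0.198 and 0.200 to 4.83, 6.13 and 5.82 CPM (4.77 on the log2 scale, adjusted p = 1.16e-18). CYP1A1, the xenobiotic-metabolising enzyme gene regulated by the aryl hydrocarbon receptor, rose from 0.544, 0.297 and 0.301 to 6.88, 8.86 and 10.7 CPM (4.51, adjusted p = 3.07e-19). SEMA7A, for a membrane-bound semaphorin that binds integrins, rose from 0.544, 0.496 and 0.601 to 10.2, 9.17 and 5.72 CPM (3.92, adjusted p = 1.42e-16). The acetylcholine receptor subunit gene CHRNA9 (3.96), LINC01583 (3.96) and R3HDML (3.91) completed the 14 largest rises named by rule, together with LEFTY2, CNN1, ANGPTL4, WNT7A and SOX8. These 14 were ranked among called genes with a symbol, at least 1 CPM in the higher group and no overlap. MMP10 (5.01), under 1 CPM, was therefore not among them.

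Outside the lists the largest falls were smaller in size. RHOV, for a small GTPase, fell from 15.4, 13.3 and 16.7 to 3.08, 3.71 and 3.61 CPM (-2.12 on the log2 scale, adjusted p = 2.22e-17). KCNJ2, for an inward-rectifier potassium channel, fell from 10.7, 10.1 and 8.17 to 2.47, 1.85 and 2.56 CPM (-2.07, adjusted p = 1.18e-15). C9orf152 fell from 11.1, 12.4 and 14.4 to 2.47, 3.35 and 3.26 CPM (-2.06, adjusted p = 9.86e-17). KIF25-AS1 (-2.60), annotated as a lincRNA gene, the neuropeptide Y receptor gene NPY2R (-2.14) and LINC00173 (-2.10) were the others among the 14 largest falls named by rule, beside DEPP1, DBP, SOX21, FOS, SOX2, HLF, HGF and CXCL2. The ranking of falls had the same filter, and CIART (-2.17) was not among the 14.

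Counted as a share of all fragments, and not per length of transcript, the 2 largest gains were in actin genes. The β-actin gene ACTB went from 3613, 3729 and 3899 to 5012, 4826 and 4888 CPM, a log2 fold change of 0.39 with an SE of 0.044 (adjusted p = 1.30e-09). The γ-actin gene ACTG1 (0.29), KRT8 (0.20), the fatty acid desaturase gene SCD (0.38), AMIGO2 (1.16) and TNS4 (1.64), for a focal adhesion tensin, were next beside PMEPA1 and TGFBI. ACTB, ACTG1 and KRT8 have many pseudogenes, with which reads may have been shared. The largest losses were in the mitochondrial gene MT-ND1, from 6135, 6987 and 7172 to 5629.5, 5315 and 4837 CPM (-0.36, adjusted p = 6.36e-04), the ferritin gene FTL (-0.19), the mitochondrial ribosomal RNA gene MT-RNR1 (-0.31) and ALDH3A1 (-0.15), AKR1C3 (-0.22), HSP90AA1 (-0.25) and ANXA1 (-0.27). Of 13 mitochondrially encoded genes only 2 were called lower (15.4%, under the 18.6% of all genes) and 0 higher. They were MT-ND1 and MT-ND2 (-0.22), and 1 was called lower without any 1 of Co.vec buffer replicate 2 or 3 or TGF-β replicate 1, 2 or 3. Hypoxia and glycolysis genes gave 12 higher (35.3%) and 7 lower (20.6%) of 34, against 21.1% and 18.6% of all genes (median -0.026). NDRG1 (1.07), PFKFB3 (0.80), PFKFB4 (0.73) and KDM3A (0.66) rose, and ADM (-0.66), EGLN3 (-0.59) and PFKM (-0.39) fell. Of 25 cholesterol synthesis genes 8 were called higher (32%) and 3 lower (12%; median 0.065), 5 higher without Co.vec buffer replicate 3. STARD4 (0.49), INSIG1 (0.36) and HMGCS1 (0.33) rose and MVK (-0.34) fell.

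The LETS1 cells gave a second view of the same treatment with no library in common. There 3187 genes were called higher (19.7%) and 3085 lower (19.1%). Genes called higher in both populations numbered 2686, which was 78.6% of those in Co.vec cells and 84.3% of those in LETS1 cells, and 2110 were called lower in both (70.1% and 68.4%). Of the genes that rose at least 2-fold in Co.vec cells, 550 of 618 were called higher in LETS1 cells, and 200 of 284 of the large falls were called lower there. Among genes called higher in Co.vec cells 18 were called lower in LETS1 cells, and among those called lower 0 were called higher. Log2 fold changes in Co.vec and LETS1 cells were 1.72 and 1.75 for TGFBR1, 1.65 and 1.65 for SKIL, 2.06 and 1.99 for CCN2, -2.31 and -2.63 for SOX2 and -3.91 and -3.67 for DEPP1.

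The difference between the responses, tested as an interaction, was called for 110 genes (0.679%), and 1282 had an unadjusted p under 0.05. Of the 110, 71 were called higher in Co.vec cells, and in 64 of these the response was smaller or opposite in LETS1 cells. Another 24 were called lower in Co.vec cells, and in 19 of these the fall was larger in LETS1 cells. GADD45B, for a stress-responsive growth arrest protein that SMADs induce, had 9.78, 10.1 and 10.2 CPM in Co.vec buffer, 51.7, 51.2 and 48.6 CPM in Co.vec with TGF-β, 32.6, 30.8 and 40.4 CPM in LETS1 buffer and 55.1, 57.8 and 54.8 CPM in LETS1 with TGF-β. The buffer libraries of LETS1 cells were already above those of Co.vec cells, and the log2 fold changes were 2.33 and 0.69 (difference -1.64, SE 0.11, adjusted p = 3.58e-13). CCN1, for a matricellular relative of CCN2, differed by -0.997 (adjusted p = 3.40e-10), and MIR23AHG, the host gene of a microRNA cluster, by -1.52 (adjusted p = 1.07e-12). The stress-response genes PPP1R15A (-0.78) and ATF3 (-1.56) and the factor gene CSRNP1 (-0.87) had the next smallest adjusted p. ATF3 stood at 6.77, 6.59 and 5.31 CPM in buffer and 12.5, 10.05 and 13.05 CPM with ligand in Co.vec cells, and at 18.5, 18.6 and 20.7 CPM in buffer and 11.9, 11.7 and 13.8 CPM with ligand in LETS1 cells. In LETS1 buffer its replicate 3 was the highest, and without that library 78 differences were called in place of 110. FOS was lower with ligand in both populations, and the fall was larger in LETS1 cells (-4.12 against -2.35, difference -1.77, adjusted p = 1.58e-05), where its buffer libraries held 57.3, 68.9 and 69.2 CPM against 18.2, 19.03 and 24.3 CPM in Co.vec cells.

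**Figure D5:**
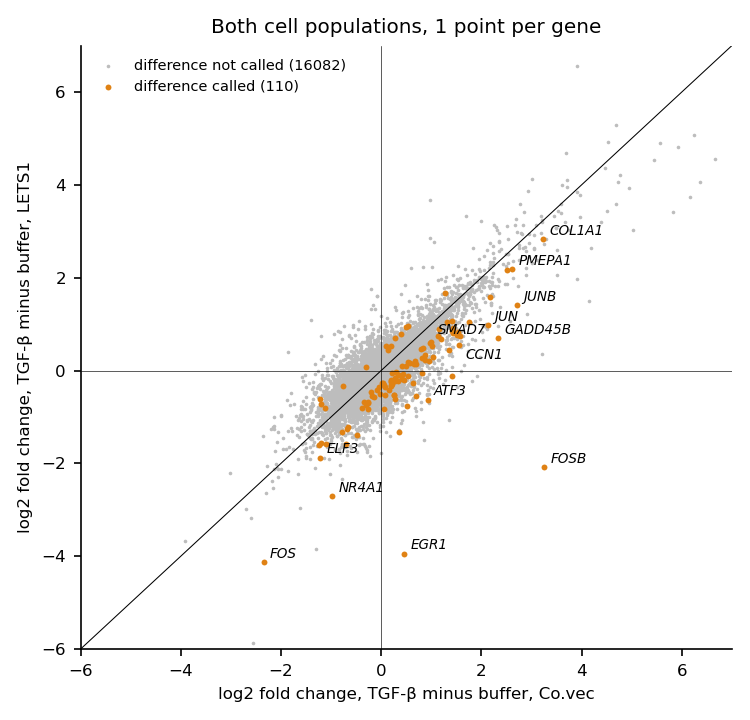
Log2 fold change of TGF-β over buffer in Co.vec cells (horizontal) and in LETS1 cells (vertical), 1 point per gene tested, with the 110 genes whose responses differ in orange and a line of equal response. Most genes lie along the line, and JUNB, JUN, CCN1, GADD45B, ATF3 and FOSB lie below it, as does EGR1, which was labelled after its values were seen.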

How the data were processed

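RNA was sequenced on a DNBSEQ platform, per the labels' protocols. Per the submitters' processing notes the tools named were FastQC, cutadapt 2.10, STAR 2.7.5a and HTSeq 0.12.4, with the build GRCh38; the strand setting and annotation release are not given in these sources. The authors deposited unnormalized counts of fragments in 60676 gene rows, and 5 further rows that name no gene. Those 5 rows, 19.2% to 19.8% of the fragments of the 6 Co.vec libraries, stayed out of library sizes and tests. Symbols came from a gene name table (60357 genes matched by ID) and coordinates from GENCODE release 29 (GRCh38).

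Here filterByExpr of edgeR 4.0.16 (R 4.3.3) kept 16192 genes, TMM scaled the library sizes, and a robust quasi-likelihood model took all 12 libraries with a mean for each of the 4 groups, which share the estimate of the spread. Benjamini-Hochberg adjustment of p-values ran over all genes tested in a contrast, and each SE was the log2 fold change divided by the root of its F statistic. At this depth 1 CPM is about 20 fragments in a library. Where a group held 1 to 3 counts, a ratio with an exact 95% interval is given; it covers counting error only, since reads copied in amplification are not independent.

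Genes were named by rule among called genes with a symbol: the 14 largest rises and falls and the 8 largest gains and losses of CPM, each with at least 1 CPM in the higher group and no overlap, up to 4 of each list and direction, 21 genes fixed by name, and 6 of the difference between responses. A gene named by more than 1 part of the rule counts under each, and some genes that the rule names are not reported here, though counts include them. The libraries, the 32 lists (816 different genes) and the rule were chosen with earlier results of these data known. Promoter windows matched 11625 of 16188 tested genes with a symbol. Alternatives were RLE size factors, no filter, only the 6 Co.vec libraries, DESeq2 1.42.0, the replicate number as a block, each library left out, a log2 fold change of at least 1, and an adjusted p under 0.01.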

Additional observations from a re-analysis of the deposited data

Results flagged for a closer look

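For 33 of the 244 genes named by rule, the response to TGF-β in LETS1 cells differed from that in Co.vec cells. The interaction test (edgeR quasi-likelihood, adjusted p under 0.05 over all genes) called 0.679% of all genes tested. The rule had taken 6 genes by this same test and most others by their Co.vec response, which enters the difference. The 33 are thus no measure of how often responses differ. Of all called differences in genes called higher in Co.vec cells, 64 were below 0 and 7 above. In genes called lower there, 19 were below 0 and 5 above. In each of the 33 the log2 difference, LETS1 response minus Co.vec response, was below 0. Among early response genes these were FOSB (-5.34), FOS (-1.77), NR4A1 (-1.72), GADD45B (-1.64), ATF3 (-1.56), MIR23AHG (-1.52), JUNB (-1.32), JUN (-1.16), NR4A2 (-0.90), CSRNP1 (-0.87), PPP1R15A (-0.78), IER3 (-0.69) and BHLHE40 (-0.55). FOSB rose in Co.vec cells (3.25) and fell in LETS1 cells (-2.09), where the buffer libraries held 17.6, 16.9 and 28.03 CPM against 0.445, 0.446 and 0.551 CPM in Co.vec buffer, and replicate 3 of the LETS1 buffer group was the highest. Among genes of TGF-β and BMP signalling they were PMEPA1 (-0.43), SMAD7 (-0.49), ID1 (-0.53), ID3 (-0.43), GREM1 (-0.58) and FSTL3 (-0.35). Among matrix, cytoskeleton, epithelial and other signalling genes they were CCN1 (-0.997), ANKRD1 (-0.57), COL1A1 (-0.40), ARHGAP29 (-0.33), KRT80 (-0.38), ELF3 (-0.66), HES1 (-0.88), DUSP8 (-0.90) and AMIGO2 (-0.28). Among metabolic and hypoxia genes they were INSIG1 (-0.44), HMGCS1 (-0.42), STARD4 (-0.39), PDK4 (-0.35) and ADM (-0.55). A difference below 0 was a smaller or reversed rise in some of these genes and a larger fall in others. ELF3, for example, had -1.22 in Co.vec and -1.87 in LETS1 cells, and HES1 -0.70 and -1.58. Without LETS1 buffer replicate 3 the number of differences called over all genes was 78 in place of 110.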

How the results depend on the processing

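Counts of genes called higher and lower in Co.vec cells (3416 and 3011) were within 1.5 times under RLE size factors, without the filter on low counts, with only the 6 Co.vec libraries, with DESeq2 (3058 and 2485) and at an adjusted p under 0.01 (2684 and 2033). With 1 of the 12 libraries left out at a time there were 3078 to 3574 higher and 2381 to 2964 lower in Co.vec cells, 2888 to 3419 higher and 2554 to 3155 lower in LETS1 cells, and 78 to 134 differences between the responses. Requiring a log2 fold change of at least 1 left 618 and 284 in Co.vec cells, 555 and 344 in LETS1 cells and 12 differences, by construction fewer. Replicate numbers did not pair the libraries: residuals of same-numbered Co.vec libraries correlated at -0.091, -0.027 and -0.21, so not every library correlated best with its own number, and a replicate block gave 3333 and 2918 calls in Co.vec cells, 3127 and 3009 in LETS1 cells and 106 differences. No setting moved the median of all genes by more than 0.014 on the log2 scale. Of 4142 values recomputed for 244 named genes over 17 settings, 4052 kept their direction and side of the threshold, 89 lost the call and 1 changed sign: MYC, not called, had -0.055, and ran from -0.13 without Co.vec TGF-β replicate 1 to 0.0053 without replicate 2 (adjusted p = 0.955). Apart from MYC, 21 genes lost a call under at least 1 setting; those not already given were AGER, COL17A1, CYP51A1, DLL4, HERC5, HES7, LSS, MXI1, NID2, PROM1, RSAD2, SOX18 and TNF, with adjusted p from 0.0501 to 0.306 where the call was lost, and the cause was not tested. Of 1088 list counts recomputed, 27 moved by over 1.5 times, including those of the other-cell markers called lower (1 with DESeq2) and the mitochondrial genes called lower (4 with only the 6 Co.vec libraries). Genes under 1 CPM rest on about 20 fragments a library or fewer, and small changes in them are not detectable at this depth.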
